A study of Mus musculus with 18 samples.

Results

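The acute phase and IL-6 family genes examined here were 10 genes, Lcn2, Orm1, Hp, Serpina3n, S100a8, S100a9, Il6ra, Cntfr, Osmr and Socs3, measured by 15 probe sets, of the 12393 genes with a probe set of their own and 22626 probe sets tested. They were taken as a list of symbols, and every probe set annotated to a listed symbol alone was kept, so no gene was lost and no filter on low signals was applied. A probe set is a group of short probes that report 1 transcript. Where a gene had several, the probe set with the highest mean signal over all arrays was used, and the others are given beside it.

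The acute phase response is the change in secreted proteins that follows infection, injury or stress. Cytokines of the IL-6 family start it: a ligand binds its own receptor chain, such as Il6ra for IL-6, Cntfr for ciliary neurotrophic factor or Osmr for oncostatin M, and a shared chain, gp130, which Il6st encodes. Janus kinases (JAK) then activate the transcription factor STAT3, which turns on acute phase genes together with C/EBP factors and, for many of them, the glucocorticoid receptor, and which also turns on Socs3, an inhibitor that closes the loop. The liver is the main source of these proteins, but muscle, fat cells and neutrophils make several of them as well.

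Affymetrix mouse genome arrays were hybridised with total RNA from soleus, a slow postural muscle, and extensor digitorum longus (EDL), a fast muscle, of adult male mice, labelled as strain C57/BL6 and given as C57BL/N6 in the study's methods. BF mice spent 30 days in orbit in the biosatellite Bion M1, BG mice lived for 30 days on the ground in a copy of its habitat, and FC mice were kept for the same 30 days in an ordinary animal facility. There were 3 arrays for each muscle of each condition, 18 in all. BF and BG mice ate paste food and FC mice standard chow, and BF mice were transported after landing before the muscles were taken, so in a difference of BF from both ground groups flight, landing and transport cannot be told apart. The labels name no other treatment and no altered gene.

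Signals are on a log2 scale, so a difference of 1 is a 2-fold change of intensity. They ran from 2.11 to 14.53 over all probe sets, the array medians lay between 6.17 and 6.26, and the correlation between arrays of a group was 0.978 to 0.995. Muscle labels matched fibre genes on every array: the mean signal of 6 slow fibre genes was 12.96 to 13.88 in soleus and 7.04 to 10.78 in EDL. The 10 genes were of middle to low signal, from the 28.5th percentile of tested probe sets for S100a8 to the 75.4th for Osmr. Whether soleus and EDL arrays of the same number came from the same mouse is not given in the sources used here. In the main fit a p-value sets a difference of means only against the spread between these 18 arrays, pooled over the 6 groups.

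In soleus, 6 of the 10 genes rose in BF over BG and none fell (limma, adjusted p under 0.05 on the gene's main probe set). They were Lcn2, Orm1, Hp, S100a8, Serpina3n and Il6ra. Over all 12393 genes, 23.3 percent passed the same test in this comparison and 11.1 percent were higher in BF. Against FC, 5 of the 10 rose and none fell, beside 25.1 percent of all genes called and 9.02 percent higher in BF. These were the same genes except Il6ra. Between the ground groups only Il6ra passed, higher in FC than in BG, where 9.8 percent of all genes passed. The median log2 fold change of the 10 genes was 0.99 for BF vs. BG and 0.98 for BF vs. FC, beside 0.03 and -0.00 over all genes. BF vs. BG and FC vs. BG share the BG arrays, and BF vs. BG and BF vs. FC share the BF arrays, so these counts are not independent of each other. In whole muscle, more cells of a type and more RNA per cell cannot be told apart.

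In EDL, where few genes passed at all, 3 of the 10 rose in BF over BG, Lcn2, Serpina3n and Il6ra, and 1 fell, Cntfr. Only 0.379 percent of all genes passed there, and 0.266 percent were higher in BF. Against FC, Lcn2, S100a8 and Serpina3n rose and none fell, beside 3.53 percent of all genes called and 1.02 percent higher in BF. None of the 10 passed between FC and BG in EDL, where 0.0323 percent of all genes did; at an unadjusted p under 0.05, Hp was higher and Cntfr lower in FC. The median log2 fold change of the 10 genes was 1.15 for BF vs. BG and 0.68 for BF vs. FC in EDL, beside -0.03 and -0.00 over all genes. The EDL calls over BG depend on how the spread was estimated. With EDL fitted alone, Serpina3n kept its call and Lcn2, Il6ra and Cntfr lost it (adjusted p = 0.056, 0.089 and 0.114), and with ordinary contrasts without moderation none of the 10 passed over BG (Lcn2 had the lowest adjusted p of these 4, 0.078). Over FC, Serpina3n lost its EDL call with ordinary contrasts (adjusted p = 0.0757) and at the study's 2-fold threshold.

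**Figure D1:**
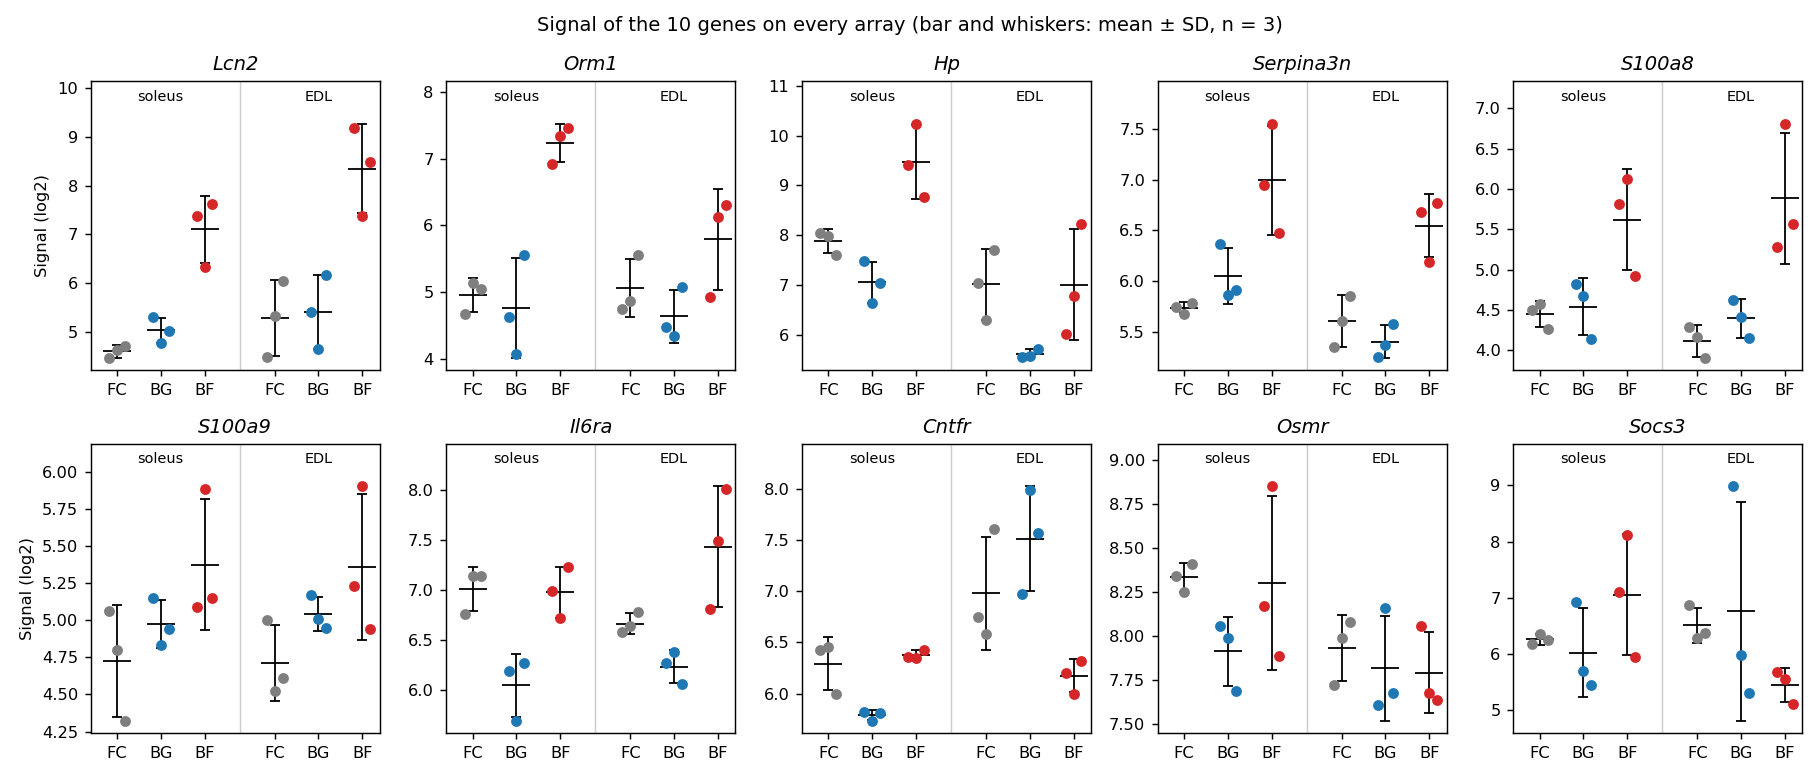
Signal (log2, y axis) of the 10 genes on each of the 18 arrays, grouped as FC, BG and BF in soleus and in EDL; points are arrays, and the bar with whiskers is the mean ± SD of 3 arrays. The BF points of Lcn2, Serpina3n and S100a8 lie above all 6 ground points in both muscles, those of Orm1 and Hp do so in soleus only, and those of Cntfr lie below all ground points in EDL.

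The separation of single arrays gave the same picture in soleus and a slightly different one in EDL. All 3 BF arrays lay above all 6 ground arrays for 5 of the 10 genes in soleus, Lcn2, Orm1, Hp, S100a8 and Serpina3n, beside 9.56 percent of all genes. In EDL they did so for 4 of the 10, Lcn2, S100a8, Serpina3n and Il6ra, beside 3.44 percent of all genes. The BF arrays of Cntfr lay below all ground arrays in EDL, and the share of all genes lying below was not counted. A comparison of 3 arrays with 3 cannot give a two-sided exact permutation p below 0.1, so the calls rest on the limma fit across all probe sets.

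Lcn2 encodes lipocalin 2, a secreted protein that binds bacterial siderophores and so keeps iron from bacteria. In soleus it read 7.37, 6.33 and 7.62 in BF, 5.30, 4.78 and 5.02 in BG, and 4.46, 4.64 and 4.71 in FC. In EDL it read 9.19, 7.37 and 8.49 in BF, 5.41, 4.65 and 6.16 in BG, and 4.49, 5.33 and 6.05 in FC. The lowest BF array was above the highest ground array in either muscle. Lcn2 rose 4.21-fold in BF over BG soleus (log2 fold change 2.07 ± 0.46 (SE), limma, adjusted p = 0.00425) and 5.68-fold over FC (2.51 ± 0.46, adjusted p = 0.000857). In EDL it rose 7.7-fold over BG (2.94 ± 0.46, adjusted p = 0.00848) and 8.35-fold over FC (3.06 ± 0.46, adjusted p = 0.00181). These were the largest changes among the 10 genes in EDL. The BF vs. BG change did not pass the test of a difference between the muscles (soleus minus EDL -0.87, 95% interval -2.23 to 0.49, adjusted p = 0.396).

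Serpina3n encodes a secreted inhibitor of serine proteases, a mouse counterpart of human antichymotrypsin. It read 6.95, 7.55 and 6.48 in BF soleus, 6.37, 5.87 and 5.91 in BG, and 5.75, 5.68 and 5.79 in FC. The EDL signals were 6.68, 6.19 and 6.77 in BF, 5.26, 5.37 and 5.58 in BG, and 5.35, 5.61 and 5.86 in FC. No BF array overlapped a ground array in either muscle, although BF soleus array 3 was only just above BG array 1. Serpina3n rose by 0.95 ± 0.22 over BG and 1.26 ± 0.22 over FC in soleus (limma, adjusted p = 0.00655 and 0.000724). In EDL the rise was 1.14 ± 0.22 over BG and 0.94 ± 0.22 over FC (adjusted p = 0.0347 and 0.026). The call over BG in EDL was lost without 8 of the 18 arrays in turn, with a limma adjusted p of up to 0.107. Of the EDL arrays compared, these were BF array 1 or 3 and each BG array. The call over FC was lost without 4 arrays (BF array 1 or 3, FC array 1 or 2, up to 0.105). The fold changes stayed between 1.03 and 1.32 over BG and between 0.81 and 1.12 over FC.

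Lcn2 and Serpina3n were the genes that rose in all 4 comparisons of BF with a ground group, and their upstream sequences are shown for the binding motifs they hold. The stretch before the annotated start is given 5′ to 3′ on the strand of the gene, from RefSeq on GRCm38.p6, for Lcn2 at chr2:32387740-32387989 on the minus strand and for Serpina3n at chr12:104406458-104406645 on the plus strand, where 62 further bases of the window that lie inside the annotated gene were left off. Capitals mark matches to a C/EBP motif (TTNNGCAA, or TTGCNNAA on the other strand) or to a motif of the glucocorticoid receptor (ACANNNTGT, its own reverse complement).
Lcn2: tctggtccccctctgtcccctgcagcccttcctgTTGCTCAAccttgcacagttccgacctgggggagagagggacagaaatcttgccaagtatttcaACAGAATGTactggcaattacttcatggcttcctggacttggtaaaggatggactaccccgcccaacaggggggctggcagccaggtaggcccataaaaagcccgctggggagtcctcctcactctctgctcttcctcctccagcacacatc
Serpina3n: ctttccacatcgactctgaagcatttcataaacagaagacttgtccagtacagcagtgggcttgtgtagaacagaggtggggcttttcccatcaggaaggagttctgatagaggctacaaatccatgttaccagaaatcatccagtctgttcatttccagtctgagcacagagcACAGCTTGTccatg
The Lcn2 stretch held 1 C/EBP match, TTGCTCAA, and 1 glucocorticoid receptor match, ACAGAATGT. The Serpina3n stretch held 1 glucocorticoid receptor match, ACAGCTTGT. Neither held the STAT motif TTCNNNGAA. Of 32851 RefSeq promoters, taken as the 250 bases before a start, 9.56 percent held the C/EBP motif, 5.84 percent the glucocorticoid receptor motif and 7.02 percent the STAT motif. Among the 8 genes of the 10 that the promoter table holds, 2 had a C/EBP match, Lcn2 and S100a9, 2 a glucocorticoid receptor match, Lcn2 and Serpina3n, and 1 a STAT match, Socs3, whose start in the table lies inside the annotated gene. The other 4, S100a8, Il6ra, Cntfr and Osmr, had none of the 3 motifs in this window. For Osmr and for every start of Cntfr the window lies inside the annotated gene, so it is not the stretch before that gene. A match is a run of letters, and binding was not measured.

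Orm1 encodes orosomucoid 1, an abundant plasma glycoprotein of the acute phase. In soleus it read 6.92, 7.34 and 7.46 in BF, 4.63, 4.07 and 5.56 in BG, and 4.67, 5.14 and 5.05 in FC. In EDL it read 4.92, 6.13 and 6.31 in BF, 4.48, 4.34 and 5.08 in BG, and 4.75, 4.87 and 5.56 in FC. In soleus BF lay more than 1 log2 unit above all ground arrays, which overlapped each other, while in EDL 1 BF array fell among the ground arrays. Orm1 rose 5.59-fold over BG and 4.88-fold over FC in soleus (2.48 ± 0.36 and 2.29 ± 0.36, limma, adjusted p = 0.000245 and 0.00032). The EDL differences, 1.15 ± 0.36 over BG and 0.72 ± 0.36 over FC, did not pass (adjusted p = 0.208 and 0.319). Soleus minus EDL was -0.11 in FC and 0.12 in BG, without passing, and in BF soleus was higher by 1.45 ± 0.36 (adjusted p = 0.0178), a call lost without BF soleus array 2 or BF EDL array 1 (up to 0.0866) and with ordinary contrasts (0.0569). The difference between the muscles in the BF vs. BG change was 1.33 ± 0.52 and did not pass (adjusted p = 0.108).

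Hp encodes haptoglobin, which binds free haemoglobin. In soleus it read 9.42, 10.24 and 8.76 in BF, 7.48, 6.65 and 7.04 in BG, and 8.04, 7.99 and 7.60 in FC. Its EDL signals were 6.02, 6.78 and 8.22 in BF, 5.55, 5.58 and 5.72 in BG, and 7.04, 6.29 and 7.71 in FC. FC lay between BG and BF in soleus with no overlap, and in EDL BF and FC both lay above BG and overlapped each other. Hp rose 5.32-fold over BG (2.41 ± 0.45, limma, adjusted p = 0.0015) and 3.01-fold over FC (1.59 ± 0.45, adjusted p = 0.017) in soleus. In EDL it was 1.39 ± 0.45 above BG (adjusted p = 0.221) and -0.01 from FC (95% interval -0.96 to 0.95), while FC was 1.40 ± 0.45 above BG (adjusted p = 0.249). Soleus exceeded EDL by 1.44 ± 0.45 in BG and by 2.46 ± 0.45 in BF (adjusted p = 0.0381 and 0.00381), and by 0.87 ± 0.45 in FC, where it did not pass (adjusted p = 0.231). The call over FC in soleus was lost without BF array 2 or FC array 3 (adjusted p up to 0.082) and with ordinary contrasts (0.0523). That of soleus over EDL in BG was lost without any of 5 of the 6 BG arrays, BG soleus array 2 being the exception (up to 0.133), with an intensity trend and robust moderation (0.0695) and with ordinary contrasts (0.0969).

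S100a8 and S100a9 are neighbouring genes whose calcium-binding proteins pair as calprotectin, a major protein of neutrophils. S100a8 read 5.82, 6.12 and 4.92 in BF soleus, 4.82, 4.67 and 4.14 in BG, and 4.50, 4.58 and 4.27 in FC. In EDL it read 5.28, 6.81 and 5.57 in BF, 4.63, 4.41 and 4.15 in BG, and 4.29, 4.17 and 3.90 in FC. BF was above both ground groups on every array, by 0.1 between the closest soleus arrays. S100a8 rose by 1.07 ± 0.33 over BG and 1.17 ± 0.33 over FC in soleus (limma, adjusted p = 0.027 and 0.0157). In EDL it rose 3.41-fold over FC (1.77 ± 0.33, adjusted p = 0.007), and the difference from BG, 1.49 ± 0.33, did not pass (adjusted p = 0.0601). The soleus call over BG was lost without each of 4 arrays (BF array 1 or 2, BG array 2 or 3; adjusted p up to 0.118), with ordinary contrasts (0.0668) and with quantile normalization repeated within each muscle (0.0591). Over FC it was lost without each of 3 (BF array 1 or 2, FC array 3; up to 0.0734).

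S100a9 moved less. Its group means in soleus were 5.37 ± 0.44 (SD, n = 3) in BF, 4.97 ± 0.16 in BG and 4.73 ± 0.38 in FC, and in EDL 5.36 ± 0.49, 5.04 ± 0.11 and 4.71 ± 0.26. BF overlapped BG in both muscles. None of its differences passed (limma, adjusted p = 0.245 and 0.0619 for BF vs. BG and BF vs. FC in soleus, 0.666 and 0.162 in EDL), and the 95% intervals reached 0.91 and 1.16 in soleus. Over the 18 arrays, with the mean of each muscle taken off, S100a8 and S100a9 had a Pearson r of 0.80, and BF array 2 was the highest for both genes in each muscle.

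Il6ra encodes the receptor chain that binds IL-6, and on its main probe set BG rather than BF stood apart in soleus. It read 6.99, 6.72 and 7.23 in BF soleus, 6.19, 5.69 and 6.27 in BG, and 6.76, 7.14 and 7.14 in FC. The signals in EDL were 6.81, 7.49 and 8.01 in BF, 6.27, 6.38 and 6.06 in BG, and 6.58, 6.64 and 6.78 in FC. In soleus BF and FC overlapped and both lay above BG, whereas in EDL all BF arrays were above all ground arrays, though BF array 1 and FC array 3 nearly met. Il6ra rose in BF over BG by 0.93 ± 0.23 in soleus and 1.20 ± 0.23 in EDL (limma, adjusted p = 0.0089 and 0.0333). FC was higher than BG in soleus by 0.96 ± 0.23 (adjusted p = 0.0142), and BF and FC differed there by -0.03 (95% interval -0.52 to 0.46). In EDL BF was 0.77 ± 0.23 above FC (adjusted p = 0.0739). A second probe set of Il6ra, with a signal of 5.5 to 5.90, passed in no comparison (BF vs. BG 0.15 ± 0.13 in soleus and 0.21 ± 0.13 in EDL), and it followed the first with an r of 0.46. On it both BF and FC overlapped BG in soleus: FC vs. BG was -0.19 ± 0.13, and BF vs. FC was 0.34 ± 0.13 with all BF arrays above FC (adjusted p = 0.388 and 0.068). The call in EDL was lost without each of 7 arrays, with a limma adjusted p of up to 0.164. These include BF array 2 or 3 and each BG array of EDL. In soleus the call over BG was lost without BG array 2 (0.0512), and that for FC vs. BG without BG array 2 or FC array 2 (up to 0.0683).

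Cntfr encodes the receptor chain for ciliary neurotrophic factor, a survival factor for nerve cells, and it was higher in BF than in BG in soleus but lower in EDL. In EDL it read 6.2, 6.0 and 6.32 in BF, 6.97, 7.99 and 7.57 in BG, and 6.75, 6.58 and 7.61 in FC. In soleus it read 6.36, 6.35 and 6.43 in BF, 5.82, 5.73 and 5.81 in BG, and 6.43, 6.45 and 6.0 in FC. BF lay below every ground array in EDL, and in soleus above every BG array but within the FC arrays. Cntfr fell by 1.34 ± 0.24 in BF compared with BG in EDL (2.53-fold, limma, adjusted p = 0.0232), and it was 0.81 ± 0.24 below FC without passing (log2 fold change -0.81, adjusted p = 0.072). In soleus BF was 0.59 ± 0.24 above BG (adjusted p = 0.0849). The difference between the muscles in the BF vs. BG change was 1.93 ± 0.34 (95% interval 1.21 to 2.64, adjusted p = 0.00437), and 1 of the 10 genes passed this test in the fit used here, beside 9.26 percent of all genes. For BF vs. FC the same difference was 0.89 ± 0.34 and did not pass (adjusted p = 0.205), and none of the 10 genes passed there, beside 2.04 percent of all genes; at an unadjusted p under 0.05, Orm1, Hp and Cntfr were higher and Il6ra lower in soleus. On the ground Cntfr was lower in soleus than in EDL, by 1.72 ± 0.24 in BG (log2 fold change -1.72, adjusted p = 0.000109) and by 0.69 ± 0.24 in FC (log2 fold change -0.69, adjusted p = 0.0627), and in BF soleus was 0.20 ± 0.24 above EDL (adjusted p = 0.618).

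The call for Cntfr in EDL was lost without any of the 3 BF arrays or without BG array 2 or 3 (adjusted p up to 0.106), while that for the difference between the muscles passed without each array in turn. A second probe set of Cntfr had a signal of 3.76 to 4.12, at the 14.6th percentile of tested probe sets, and passed in no comparison. In the contrast of soleus with EDL, none of the 10 genes passed in FC (16.4 percent of all genes did; at an unadjusted p under 0.05, Cntfr alone was lower in soleus), Hp and Cntfr passed in BG (17 percent), and Orm1 and Hp passed in BF (12.4 percent).

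Osmr, the receptor chain for oncostatin M, had the highest signal of the group and the narrowest range. Its means were 8.30 ± 0.50 in BF soleus, 7.91 ± 0.20 in BG and 8.34 ± 0.08 in FC, and in EDL 7.79 ± 0.23, 7.82 ± 0.30 and 7.93 ± 0.19. No difference passed, and in EDL the BF vs. BG interval was -0.46 to 0.41. A second, weak probe set of Osmr (signal 3.86 to 4.59) rose in BF over FC in soleus by 0.73 ± 0.13 (limma, adjusted p = 0.000747) and was lower in FC than in BG there (log2 fold change -0.46 ± 0.13, adjusted p = 0.0315), where the main probe set was 0.42 higher. Its r to the first was -0.07, so the 2 probe sets disagree.

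Socs3, the feedback inhibitor of gp130 signalling and a direct STAT3 target, had the widest standard error of the 10 genes, 0.68. It read 7.11, 8.11 and 5.95 in BF soleus, 6.93, 5.69 and 5.45 in BG, and 6.17, 6.36 and 6.25 in FC. Signals in EDL were 5.68, 5.56 and 5.10 in BF, 8.98, 5.98 and 5.31 in BG, and 6.87, 6.28 and 6.37 in FC. The groups overlapped except in EDL, where BF was below FC on every array. No difference passed: BF vs. BG was 1.04 ± 0.68 in soleus (limma, adjusted p = 0.285) and -1.31 ± 0.68 in EDL (adjusted p = 0.465). The EDL value rests on BG array 1, and without it the difference was -0.20 ± 0.48. The 3 probe sets of Socs3, of which the main one is of a kind that can also bind related transcripts, followed each other (r 0.94 to 0.97).

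**Figure D2:**
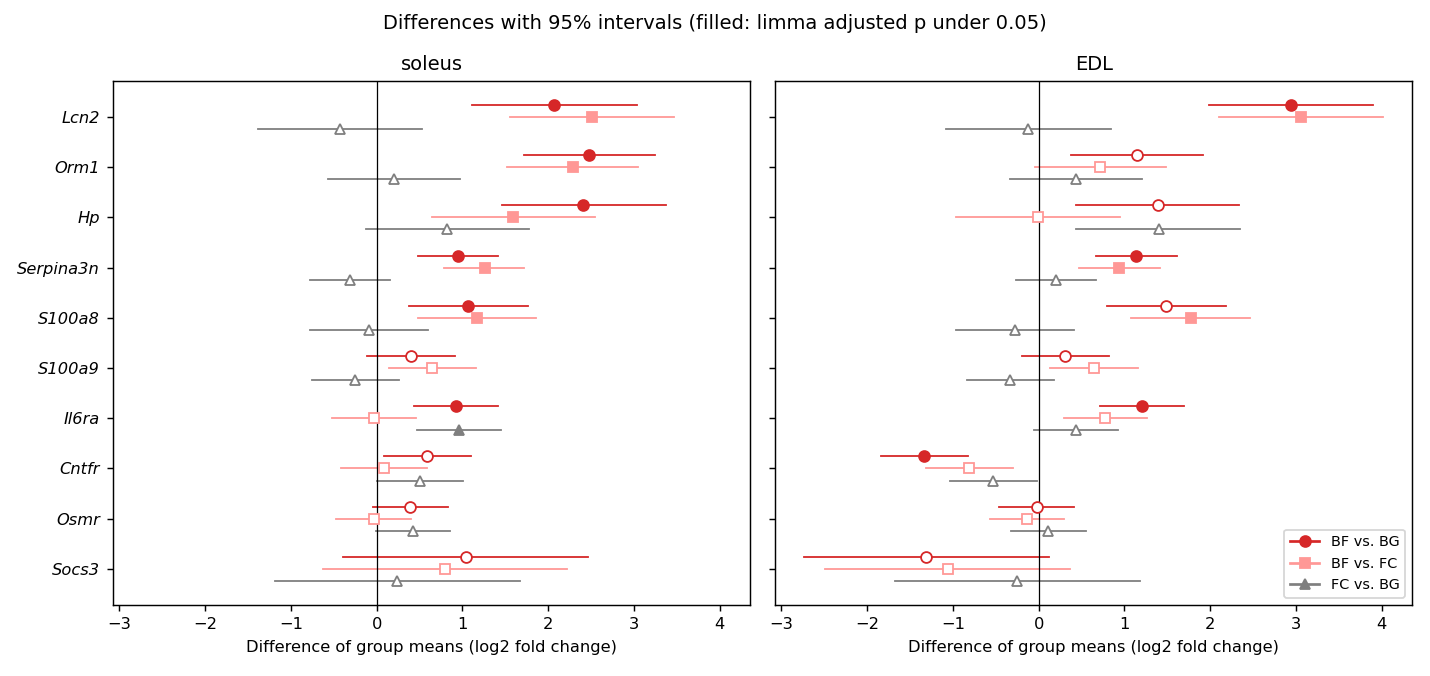
Difference of group means (log2 fold change, x axis) with its 95% interval for the 10 genes (y axis) in soleus and EDL, as circles for BF vs. BG, squares for BF vs. FC and triangles for FC vs. BG; filled symbols passed an adjusted p under 0.05 in limma. Lcn2 and Serpina3n are filled in both BF comparisons of both muscles, and Cntfr is filled to the left of 0 in EDL.

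The signals of the 6 genes that rose in soleus were correlated to varying degrees across arrays. Over the 18 arrays, after the mean of each muscle was taken off, Pearson r ran from 0.46 for Serpina3n and Il6ra and 0.48 for Lcn2 and Hp to 0.84 for Lcn2 and Serpina3n, with 0.81 for Orm1 and Hp and 0.75 for S100a8 and Serpina3n. Socs3 and Osmr followed none of the genes that rose closely (r -0.21 to 0.35). These values include the differences between conditions and carry no test. Of 12392 other genes, those most like Lcn2 by this measure were Sesn1, a stress-induced sestrin (r 0.920), Clk4 (0.896) and Cdkal1 (0.889). Those most like Orm1 were Scd1, the stearoyl-CoA desaturase of fat synthesis (0.908), Ahcy (0.897) and Cdo1, a cysteine dioxygenase (0.891). For S100a8 they were Amot (0.884), Cdc42se1 (0.883) and Dpp8 (0.852), and for Cntfr Tmem35a (0.840), Klrc3 (0.834) and C2cd2 (0.817).

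Among the ligands of the family, 6 of 10 listed genes had a probe set of their own in the annotation used here and were analysed. In soleus Il6 and Il11 rose and Ctf1 fell in BF over BG, beside 23.3 percent of all genes called, and Il6 rose and Ctf1 fell over FC, beside 25.1 percent. None passed in EDL (0.379 and 3.53 percent of all genes). Il6, the founding cytokine of the family, averaged 4.04 ± 0.78 in BF soleus against 3.14 ± 0.03 in BG and 3.10 ± 0.07 in FC (SD, n = 3), and all BF arrays were above all ground arrays. It rose by 0.90 ± 0.24 over BG and 0.94 ± 0.24 over FC (limma, adjusted p = 0.0137 and 0.00894), from a low signal, at the 6.79th percentile of tested probe sets. In EDL Il6 stayed between a mean of 3.11 and 3.31. Ctf1, which encodes cardiotrophin 1, fell by 0.50 ± 0.15 compared with BG and by 0.55 ± 0.15 compared with FC in soleus (adjusted p = 0.0242 and 0.012), and Il11 rose by 0.42 ± 0.14 over BG (adjusted p = 0.0415).

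Of the receptor chains, 6 of 7 were analysed, 3 of them Il6ra, Cntfr and Osmr. Il6st, the shared gp130 chain, was at the 90.3rd percentile of signals and passed nowhere: BF vs. BG was -0.32 ± 0.15 in soleus and -0.04 ± 0.15 in EDL (limma, adjusted p = 0.122 and 0.942). Lifr, the receptor for leukaemia inhibitory factor, fell in BF compared with FC in EDL by 0.80 ± 0.21 (adjusted p = 0.0451), and BF vs. BG was -0.19 ± 0.21 there and -0.55 ± 0.21 in soleus, without passing. In EDL, Il6ra passed higher and Cntfr lower in BF than in BG, beside 0.379 percent of all genes called. Lifr passed lower than in FC, beside 3.53 percent. Il6ra and Cntfr lost these calls with each muscle fitted alone, with ordinary contrasts and with a gene's probe sets averaged.

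Of 24 listed kinases, STATs and feedback genes 23 were analysed, and 5 rose and 1 fell in BF vs. BG soleus, and 4 rose and 6 fell in BF vs. FC soleus. In BF vs. BG that share is close to the 23.3 percent of all genes called, and in BF vs. FC 25.1 percent of all genes were called. Jak1, a kinase bound to gp130, rose by 0.64 ± 0.13 over BG and 0.98 ± 0.13 over FC (limma, adjusted p = 0.00225 and 6.36e-05). Stat3 itself passed in none of these comparisons, and BF vs. BG was -0.15 ± 0.12 in soleus and -0.24 ± 0.12 in EDL. Of the feedback genes, Cish fell by 1.57 ± 0.50 compared with FC in soleus (adjusted p = 0.0303), Socs2 rose by 0.79 ± 0.24 over BG (adjusted p = 0.0252) and was 0.01 from FC, and Socs5 fell by 0.94 ± 0.17 compared with FC (adjusted p = 0.000707). In EDL none of the 23 passed in BF vs. BG, beside 0.379 percent of all genes (at an unadjusted p under 0.05, 1 was lower). Jak2 and Stat6 fell there in BF compared with FC, by 1.0 ± 0.14 and 0.62 ± 0.14 (limma, adjusted p = 0.00165 and 0.0202), beside 3.53 percent of all genes called.

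Of 14 listed transcription factors of the acute phase 12 were analysed. Of these 5 rose and 1 fell in BF vs. BG soleus, beside 23.3 percent of all genes called and 11.1 percent higher in BF, and 5 rose over FC, beside 25.1 and 9.02 percent. Cebpd, a C/EBP factor induced in the acute phase, had means of 10.28 ± 0.16 in BF soleus, 8.99 ± 0.60 in BG and 8.90 ± 0.45 in FC, and in EDL of 10.66 ± 0.19, 9.75 ± 0.31 and 9.31 ± 0.41 (SD, n = 3). It rose by 1.3 ± 0.27 over BG and 1.38 ± 0.27 over FC in soleus (limma, adjusted p = 0.00338 and 0.00173) and by 1.36 ± 0.27 over FC in EDL (adjusted p = 0.0121), with 0.92 ± 0.27 over BG in EDL not passing (adjusted p = 0.182). Cebpb, its relative, fell by 0.95 ± 0.23 compared with BG in soleus (adjusted p = 0.00717) and was not called in EDL. Cebpa rose by 1.32 ± 0.25 over BG and Fos, an immediate early gene, by 2.41 ± 0.50 (adjusted p = 0.00172 and 0.00283), both in soleus, and neither passed in EDL. Junb, another immediate early gene, rose by 1.27 ± 0.38 over FC in soleus (adjusted p = 0.0231). The BF soleus arrays of Fos spread with an SD of 1.18.

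Of 42 listed acute phase proteins 35 were analysed, 4 of them Lcn2, Orm1, Hp and Serpina3n. In soleus 13 of the 35 rose and none fell in BF over BG, and 9 rose and 2 fell over FC, so 9 and 5 rose besides those 4 genes. Over all genes 11.1 percent were higher in BF than in BG and 9.02 percent higher than in FC there. In EDL 2 rose over BG and 3 over FC, beside 0.266 and 1.02 percent of all genes, and of these only Mt1 was not among the 10 genes. Mt2 and Mt1 encode metallothioneins, metal-binding proteins that glucocorticoids, zinc and IL-6 induce. Mt2 rose by 1.27 ± 0.37 over BG and 2.08 ± 0.37 over FC in soleus (limma, adjusted p = 0.0218 and 0.000738), and Mt1 rose by 1.45 ± 0.37 over FC in soleus and 1.66 ± 0.37 over FC in EDL (adjusted p = 0.00832 and 0.0191). Saa3, a serum amyloid A made outside the liver, rose by 0.68 ± 0.14 over BG and 0.53 ± 0.14 over FC in soleus (adjusted p = 0.00281 and 0.0118) and was -0.16 and -0.04 from BG and FC in EDL. The median log2 fold change of the 35 genes was 0.35 for BF vs. BG in soleus and 0.07 in EDL, beside 0.03 and -0.03 over all genes, and 9 of the 35 had signals under the lower quartile of all probe sets. These weak signals include Fgg, Itih4 and Saa1, which are counted above as risen over BG in soleus, and Saa1 also over FC.

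**Figure D3:**
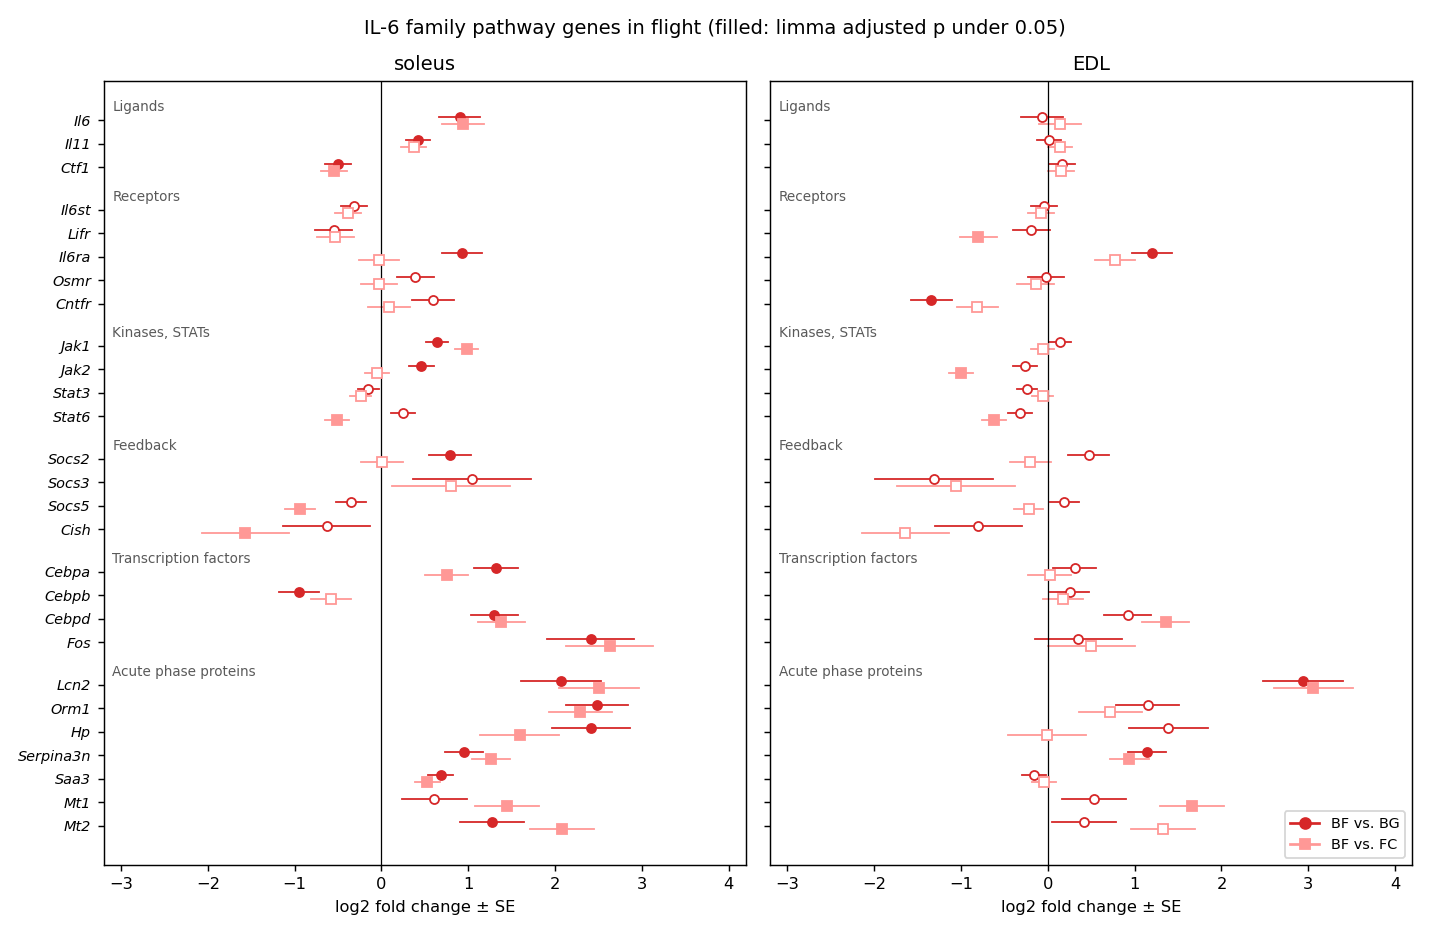
Log2 fold change ± SE (x axis) of IL-6 family ligands, receptors, kinases and STATs, feedback genes, transcription factors and acute phase proteins (y axis) in soleus and EDL, as circles for BF vs. BG and squares for BF vs. FC; filled symbols passed an adjusted p under 0.05 in limma. In soleus filled symbols stand in all 6 groups of genes, whereas in EDL they are Lcn2, Serpina3n, Mt1, Cebpd and Il6ra to the right and Cntfr, Lifr, Jak2 and Stat6 to the left.

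Several of the 10 genes are also made by cells other than muscle fibres. Neutrophils carry S100a8, S100a9, Lcn2 and Hp. The mean signal of 12 other neutrophil markers was 4.68 to 4.87 in BF soleus against 4.59 to 4.72 on the ground, and 4.82 to 5.03 in BF EDL against 4.59 to 4.81. Of 7 defining markers, among them Ngp, Camp, Ltf, Elane and Mpo, none passed in BF vs. BG of either muscle (at an unadjusted p under 0.05, 1 rose in soleus and none in EDL). Over all genes 23.3 percent passed there in soleus but only 0.379 percent in EDL, so the EDL count cannot show that these markers were unchanged. With only 7 markers, the soleus count cannot show it either. Their median log2 fold change was 0.18 in soleus and 0.17 in EDL, beside 0.03 and -0.03 over all genes. Camp alone rose over FC in soleus, by 0.48 ± 0.16 (limma, adjusted p = 0.034), beside 25.1 percent of all genes called. Mpo and Cxcr2 had signals under the lower quartile of all probe sets.

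The adipocyte list ranked the groups much as Hp did. Fat cells make haptoglobin, orosomucoid and lipocalin 2. The mean signal of 8 adipocyte markers was 9.82 to 10.79 in BF soleus, 8.96 to 9.30 in BG and 9.27 to 9.37 in FC, and in EDL 8.49 to 9.0 in BF, 8.06 to 8.34 in BG and 8.56 to 9.20 in FC. As for Hp, BF was highest in soleus, and BF and FC lay above BG in EDL. Adipoq, the fat cell hormone adiponectin, rose by 2.34 ± 0.42 over BG in soleus, and Lep, the hormone leptin, by 2.96 ± 0.41 (limma, adjusted p = 0.00116 and 0.000156). Of the 8 markers, 5 rose and 1 fell against BG in soleus, and 4 rose and 1 fell against FC (23.3 and 25.1 percent of all genes were called). The marker that fell was Lpl in both. None passed in EDL, beside 0.379 percent of all genes over BG and 3.53 percent over FC (2 were higher in BF than in BG at an unadjusted p under 0.05). The part of fat cells in the changes of Hp and Orm1 was not tested.

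Of 13 macrophage and monocyte markers, 2 rose in BF soleus over BG and over FC, Cd68 and Fcgr1, beside 11.1 and 9.02 percent of all genes, and 1, Csf1r, fell compared with FC. None passed in BF vs. BG EDL, beside 0.379 percent of all genes, nor at an unadjusted p under 0.05. Cd68, a lysosomal protein of macrophages, rose 10.6-fold over BG in soleus (3.40 ± 0.39, limma, adjusted p = 3.57e-05). The whole list had a mean signal of 6.6 to 7.27 in BF soleus and 6.30 to 6.74 on the ground, with Cd68 included in that mean. The median log2 fold change of the 13 markers in soleus was 0.30 over BG and -0.08 over FC, beside 0.03 and -0.00 over all genes. The 7 hepatocyte markers, which include albumin, stood at a mean of 4.50 to 4.80 on all 18 arrays, and 3 of them had signals under the lower quartile of all probe sets. None of the 7 passed in BF vs. BG or BF vs. FC of either muscle (at an unadjusted p under 0.05, 1 rose in soleus in each and none in EDL). Over all genes 23.3 and 25.1 percent were called in soleus and 0.379 and 3.53 percent in EDL. Of 3 red blood cell markers Hba-a1 rose and Slc4a1 fell in BF vs. BG soleus, both with signals under that quartile. In BF soleus the mean of 5 endothelial markers was 7.14 to 7.48 against 7.86 to 8.25 on the ground, that of 5 connective tissue markers was 9.16 to 9.87 against 10.08 to 10.76, and that of 6 fast fibre genes was 13.46 to 13.93 against 11.26 to 12.67. The part of these shifts in the values of the 10 genes was not tested.

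**Figure D4:**
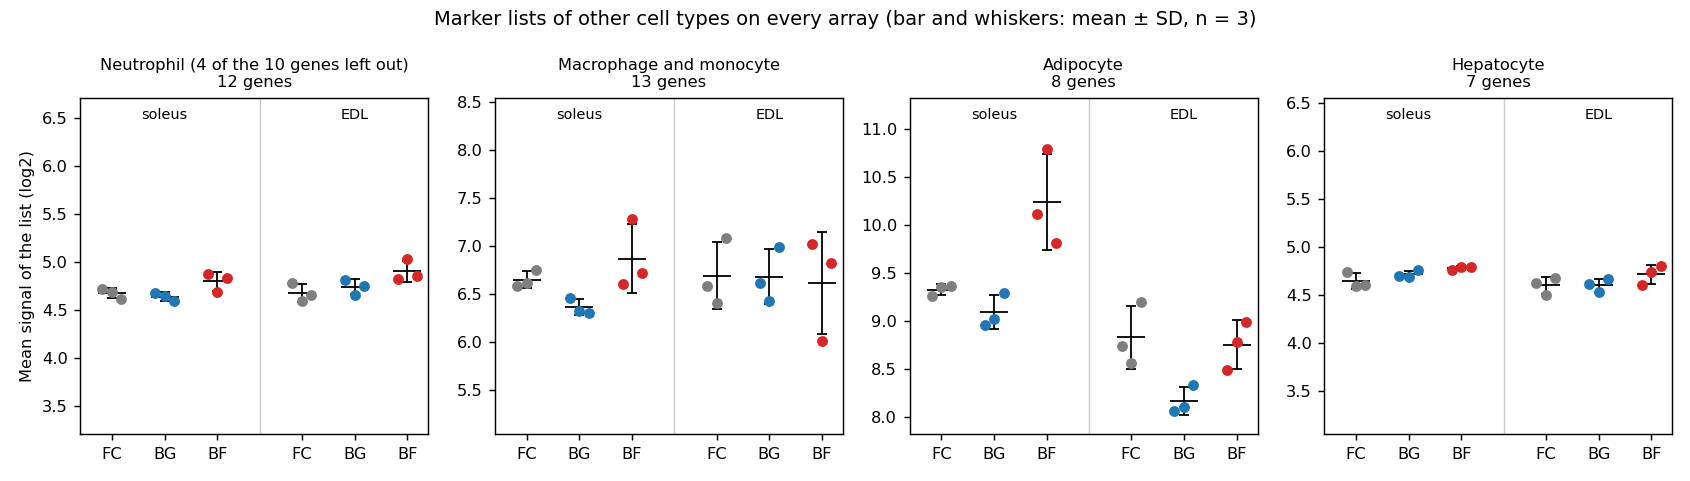
Mean signal (log2, y axis, the same span in each panel) of marker lists of neutrophils without the 4 genes examined here, macrophages and monocytes, adipocytes and hepatocytes on each of the 18 arrays, grouped as FC, BG and BF in soleus and EDL; the bar with whiskers is the mean ± SD of 3 arrays. The adipocyte list is highest in BF soleus and lowest in BG EDL, and the neutrophil and hepatocyte lists stay between 4.50 and 5.03 on all arrays. Within that range the BF arrays of the neutrophil list lie above all ground arrays in EDL, but not in soleus.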

How the data were processed

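The deposited values are log2 signals that the authors made in Partek from all 18 arrays by RMA (background correction, quantile normalization, log2 transformation, median polish). No raw intensities were used, and arrays give no counting depth: their number, 3 per group, limits the precision. Of 22690 probe sets, 64 controls were left out and 22626 tested. Samples were grouped by the titles; the descriptions of BF EDL arrays 2 and 3 name Bion M2 and Bion M3, which was taken as a slip. No batch is labelled.

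Group means (6 groups, 18 arrays) were estimated with limma 3.58.1 in R 4.3.3 and eBayes (12 residual and 5.1 prior degrees of freedom), two-sided, with Benjamini-Hochberg adjustment over all 22626 probe sets. A gene was called where its brightest probe set had an adjusted p under 0.05, whatever the fold change. The study's methods used one-way analysis of variance with a 2-fold threshold. As alternatives, the study's thresholds were set on the limma fit, and ordinary contrasts without moderation were run without a fold threshold. Others were array weights, other moderation, filters and normalization, a replicate block and each array left out. Named genes were the 10 genes, up to 4 called genes of each pathway list and muscle with the largest change, Il6, Il6st, Lifr, Stat3, Saa3, Cebpb and Cebpd, and the 3 genes most correlated with Lcn2, Orm1, S100a8 and Cntfr. Marker genes of other cell types were named after their values were seen. The genes and lists were chosen with earlier results of these data known. Gene names come from the platform annotation, and promoter sequences from RefSeq (GRCm38.p6); those of Orm1 and Hp were not used here. Probe sets naming several genes were tested but named no gene, and listed genes without a probe set of their own in that annotation were not analysed here. The fit was tested on simulated data. Figures were drawn with matplotlib 3.10.9 in Python 3.11.15.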

Additional observations from a re-analysis of the deposited data

Results flagged for a closer look

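The BF vs. BG change of Cntfr differed between the muscles by 1.93 ± 0.34 on the log2 scale (soleus minus EDL, limma, adjusted p = 0.00437): BF was above BG in soleus and below it in EDL. The difference passed without each of the 18 arrays in turn, with values of 1.69 to 2.20 and an adjusted p of at most 0.0133, and it was smaller, 1.20, when the probe sets of the gene were averaged. On the second, weaker probe set of Cntfr the difference was 0.47 ± 0.26 and did not pass (adjusted p = 0.25). On the main probe set the soleus rise over BG, 0.59 ± 0.24, did not pass (limma, adjusted p = 0.0849). BF was 0.09 ± 0.24 from FC in soleus. Against FC, the difference between the muscles was 0.89 ± 0.34 and did not pass (limma, adjusted p = 0.205).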

How the results depend on the processing

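Of 653 values of the 24 called gene results under other settings or without 1 array, 588 kept direction and call, 65 lost the call and none reversed. Many of these values could not have reversed. Leaving out an array of a group not compared, other moderation, filters and thresholds all leave the fold change as it was. These counts therefore do not measure how stable the directions are. Lcn2 in all 4 comparisons of BF with the ground, Orm1 and Serpina3n in both soleus comparisons and Cntfr between the muscles passed without each array in turn. So did Hp in BF vs. BG soleus and S100a8 in BF vs. FC EDL, and for soleus vs. EDL Cntfr in BG and Hp in BF.

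Without 1 array at a time, the number of the 10 genes called was 4 to 7 for BF vs. BG and 3 to 6 for BF vs. FC in soleus, 1 to 5 and 2 to 4 in EDL, 0 to 1 and 0 to 0 for FC vs. BG in soleus and EDL, 1 to 1 and 0 to 0 for the difference between the muscles in BF vs. BG and BF vs. FC, and 0 to 1, 1 to 3 and 1 to 6 for soleus vs. EDL in FC, BG and BF. With only probe sets above the median signal, which hold 5 of the 10 genes, BF vs. BG called 2 in soleus and 2 in EDL, BF vs. FC in soleus 1, and soleus vs. EDL 1 in FC and 1 in BF. With each muscle fitted alone, FC vs. BG in soleus called 2 and BF vs. BG in EDL 1, Serpina3n. Array weights gave 2 for FC vs. BG in soleus, 5 for BF vs. FC in EDL, 2 and 2 for the differences between muscles and 1 for soleus vs. EDL in FC. With a gene's probe sets averaged, FC vs. BG in soleus called 0 and BF vs. BG in EDL 2. The methods' thresholds were set on the limma fit and take an unadjusted p in EDL. With them FC vs. BG called 0 in soleus and 1 in EDL (Hp), and BF vs. BG in EDL 7. Centring on array medians gave 1 for soleus vs. EDL in FC, and an intensity trend with robust moderation 1 in BG. Ordinary contrasts without moderation called 0 for BF vs. BG in EDL (Lcn2, Serpina3n, Il6ra and Cntfr lost their calls, adjusted p 0.078 to 0.111), and S100a8 in BF vs. BG soleus, Hp in BF vs. FC soleus and Serpina3n in BF vs. FC EDL also lost theirs (0.0668, 0.0523 and 0.0757); it called 1 for soleus vs. EDL in BG and 1 in BF.

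With the replicate number as a block, the differences between the muscles called 3 (Orm1, Cntfr and Socs3) for BF vs. BG and 1 (Orm1) for BF vs. FC, and soleus vs. EDL called 1 in BG, without Hp (adjusted p = 0.0623), and 4 in BF. The pairing is not given by the labels: same-numbered soleus and EDL arrays of a condition deviated together with r from -0.05 to 0.37, over 0.1 in 6 of 9 pairs, and 12 of 18 arrays were closest to their own number. The cause of these shifts was not tested. Low signals, as for Il6 and the second probe sets of Cntfr and Osmr, limit what a small difference there can show.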
